A study of Mus musculus with 6 samples.

Results

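The B7 family and its neighbours are the surface proteins through which antigen-presenting cells switch T cells on or off. CD80 and CD86 bind CD28 on T cells to give the second activating signal, and bind CTLA-4, which restrains the cell. CTLA4-Ig (abatacept), a fusion of the outer part of CTLA-4 with an antibody Fc part, binds CD80 and CD86 so the genes of this set include the targets of the drug. The other proteins of the set work in the same contact: PD-L1 (gene Cd274) and PD-L2 (Pdcd1lg2) bind the inhibitory receptor PD-1, ICOS ligand (Icosl) binds ICOS, and CD276 (B7-H3) is a relative whose partner is less clear. CD40 receives CD40 ligand from T cells and is known to raise CD80 and CD86 in presenting cells. HVEM (Tnfrsf14) binds the inhibitory receptor BTLA and the ligand LIGHT (Tnfsf14).

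The members were chosen by gene name: 8 genes of the 23284 listed in each library. The 6 RNA-seq libraries came from cells of the skull vault that a sorter picked for EGFP in CX3CR1-EGFP mice, where green fluorescence reports the fractalkine receptor gene of monocytes and related precursors. All mice had lipopolysaccharide (LPS), a bacterial outer membrane component, injected at the calvarial periosteum. The CTLA4-Ig group (3 libraries) received 10 mg/kg CTLA4-Ig with it, and the control IgG group (3 libraries) 10 mg/kg whole human IgG; cells were sorted 5 days later. The titles call the libraries biological replicates, but the labels used give no strain, age or sex and do not say how many animals made a library. A p-value measures only the spread between these libraries. Values are FPKM, fragments scaled to transcript length and to the depth of the library. From the steps between low values, depth was estimated at 9360000 to 11420000 fragments with CTLA4-Ig, against 9480000 to 10300000 with control IgG. The values were scaled between libraries. These figures therefore give what a fragment was worth on that scale and may differ from the true totals.

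Markers of several myeloid cell types were present. Monocyte markers summed to 3308 to 3679 FPKM with CTLA4-Ig, against 3666 to 3848 FPKM with control IgG. Ly6c2 made up most of these sums, with a mean of 2250 FPKM and a log2 difference of -0.015. Of the 10 monocyte markers 4 had a positive log2 difference and 6 a negative one, with a median of -0.03. For macrophage markers the sum was 230 to 338 against 222 to 266 FPKM. Basophil, mast cell and eosinophil markers gave 790 to 1280 against 652 to 956 FPKM, and NK cell markers 98.3 to 146 against 120 to 140 FPKM. The sum of 1280 FPKM, in CTLA4-Ig library 3, was mostly Prg2 (787 FPKM). Cx3cr1, the reporter's own gene, stood at 24.1, 16.6 and 26.5 FPKM with CTLA4-Ig and at 12.3, 23.8 and 32.5 FPKM with control IgG. Of 9 osteoclast markers 5 stayed under 1 FPKM in every library, among them Oscar, at 0 in all, and the fusion gene Dcstamp. The 4 others were measured, with means over the 6 libraries of 23.9 FPKM for Nfatc1, 20.2 for Acp5, 3.00 for Ctsk and 1.71 for Tnfrsf11a. Neutrophil markers were abundant: the 10 measured summed to 41460 to 53120 FPKM with CTLA4-Ig against 26890 to 33790 FPKM with control IgG. Ngp, Camp, Lcn2 and Ltf made up most of these sums, with means of 14880, 12730, 6208 and 2607 FPKM. All 10 had a positive log2 difference. In the limma test described below 7 had an unadjusted p under 0.05, against 6.07% of all genes, and 0 were called after adjustment. The groups did not overlap in 6 of the 10, against 12.2% of all genes. Conventional dendritic cell markers had a mean log2 value of 2.73, 2.62 and 2.75 in the CTLA4-Ig libraries and 2.37, 2.67 and 2.91 in the control IgG libraries. Their sum was 46.9 to 57.2 FPKM with CTLA4-Ig, against 51.8 to 66.6 FPKM with control IgG, and the highest sum, in control library 1, was mostly Flt3 (46.6 FPKM). B cell markers summed to 20.8 to 24.5 FPKM with CTLA4-Ig, against 17.5 to 25.7 FPKM with control IgG. T cell markers summed to 11.1 to 16.4 FPKM with CTLA4-Ig, against 9.49 to 18.6 FPKM with control IgG. In such bulk libraries, fewer cells of a type and less RNA per cell cannot be told apart. Control IgG library 1 held the highest or the lowest of the 6 values in 49.4% of the 10865 genes tested, where each of the other libraries did so in 24.3 to 37.6%. Its mean correlation with the other libraries of its group was 0.9627, the lowest of the 6, beside 0.9628 to 0.9684 for the others. The means of the other control libraries include their pairs with it, so that measure cannot tell whether it stood apart.

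The members lie on 6 chromosomes in the mouse build GRCm38. Cd86 (chromosome 16, 36603869 to 36666081, minus strand) and Cd80 (chromosome 16, 38455561 to 38496335, plus strand) are 1.79 megabases apart. Cd274 (chromosome 19, 29367455 to 29388095) and Pdcd1lg2 (chromosome 19, 29410919 to 29471161) are neighbours on the plus strand, 22.8 kilobases apart. Icosl is on chromosome 10 (78069302 to 78083913), Cd276 on chromosome 9 (58524298 to 58555437), Cd40 on chromosome 2 (165055627 to 165072948) and Tnfrsf14 on chromosome 4 (154921933 to 154928563). All 8 are protein-coding in GENCODE M21. Cd274 overlaps AC119228.1, Pdcd1lg2 overlaps A930007I19Rik and Cd276 overlaps Gm10657, each on the opposite strand. The library kit keeps strand, but the use of strand in the authors' counting is not given in the sources used here, so reads of these pairs may not be separated.

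Promoters of 6 of the 8 members were found in a RefSeq table (GRCm38.p6, 250 bases before to 50 bases after a transcript start). Of these, 3 are shown: Cd80 as a target of the drug, and Cd274 and Tnfrsf14 because their windows held a match to the element that interferon regulatory factors bind. The windows are chr16:38458683-38458982 (plus strand) for Cd80, chr19:29367188-29367487 (plus strand) for Cd274 and chr4:154928028-154928327 (minus strand) for Tnfrsf14. Capitals mark the match, and each sequence runs 5′ to 3′ along the gene.
Cd80: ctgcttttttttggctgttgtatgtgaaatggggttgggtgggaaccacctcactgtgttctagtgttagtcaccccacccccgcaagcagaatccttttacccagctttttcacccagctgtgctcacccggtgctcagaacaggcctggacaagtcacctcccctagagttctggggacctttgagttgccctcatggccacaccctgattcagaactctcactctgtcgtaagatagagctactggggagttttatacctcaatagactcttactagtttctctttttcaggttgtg
Cd274: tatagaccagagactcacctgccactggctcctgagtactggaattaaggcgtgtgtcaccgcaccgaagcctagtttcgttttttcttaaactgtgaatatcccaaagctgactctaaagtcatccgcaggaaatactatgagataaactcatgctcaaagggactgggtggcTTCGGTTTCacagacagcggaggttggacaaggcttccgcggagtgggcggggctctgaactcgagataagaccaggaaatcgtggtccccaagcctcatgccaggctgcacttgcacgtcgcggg
Tnfrsf14: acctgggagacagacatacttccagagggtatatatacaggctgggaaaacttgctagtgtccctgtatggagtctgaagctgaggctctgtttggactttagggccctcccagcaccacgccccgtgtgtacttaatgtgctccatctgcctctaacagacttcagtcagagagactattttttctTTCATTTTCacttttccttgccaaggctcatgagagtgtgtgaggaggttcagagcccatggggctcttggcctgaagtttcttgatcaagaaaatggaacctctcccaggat
The letters searched on both strands were GAAANNGAA for interferon regulatory factors, TTCNNNGAA for the gamma-activated site of STAT proteins and GGGNNNTTCC for NF-kB. The first began 76 bases before the RefSeq start of Cd274 and 63 bases before that of Tnfrsf14, on the opposite strand in each, and no match to the other motifs was found in the 6 windows. Of all 32851 promoters in the table, 8.56% held the first motif, 8.3% the gamma-activated site and 5.56% the NF-kB motif. The RefSeq start behind the window lies 486 bases inside the GENCODE gene for Tnfrsf14 and 3372 bases inside it for Cd80, so those windows are within the genes as given above. For Cd274 it lies just before the GENCODE start. A match is a description of these letters, not a bound site.

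None of the costimulatory genes was called different between CTLA4-Ig and control IgG, and in each of the 8 the libraries of the groups overlapped. Of the 8 members, 6 passed the filter of a mean of at least 1 FPKM and were tested with limma on log2(FPKM + 1). At a Benjamini-Hochberg adjusted p under 0.05 limma called 0 of 6 members, where 0.0% of all 10865 genes were called. At an unadjusted p under 0.05 there were 0 of 6, where the background was 6.07% of genes (4.09% higher and 1.98% lower). The groups did not overlap in 0 of 6, against 12.2% of genes (6.5% higher and 5.69% lower). The median difference of the 6 was 0.004 on the log2 scale, with 3 positive and 3 negative, beside -0.006 over all genes tested. Cd276 and Pdcd1lg2 were under the filter and have no test. All 10 neutrophil markers had a positive difference beside these values, with a median of 0.56 on the log2 scale and 0 called. Their part in the member values was not tested.

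Cd86, the constitutive ligand of resting presenting cells, stood at 8.81, 7.44 and 8.41 FPKM with CTLA4-Ig and at 9.55, 8.58 and 8.95 FPKM with control IgG. Only CTLA4-Ig library 1 reached into the control range. With CTLA4-Ig the mean was 8.22 ± 0.705 FPKM, and with control IgG 9.03 ± 0.489 FPKM (SD, n = 3 each). The log2 difference was -0.12 ± 0.08 (SE), with a 95% interval from -0.32 to 0.08 and a Benjamini-Hochberg adjusted p = 0.89 in limma. Leaving out any library kept the sign, with values from -0.17 to -0.06.

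Cd80, the ligand that rises when presenting cells are activated, stood at 4.70, 5.70 and 4.09 FPKM with CTLA4-Ig and at 9.08, 5.50 and 3.65 FPKM with control IgG. The 3 CTLA4-Ig values lay inside the control range, and control libraries 1 and 3 were the highest and the lowest of all 6. The control values differed 2.49-fold among themselves. Mean Cd80 was 4.83 ± 0.816 FPKM in CTLA4-Ig libraries and 6.08 ± 2.76 FPKM in control IgG libraries (SD, n = 3 each). The log2 difference was -0.22 ± 0.27 (SE), with a 95% interval from -0.86 to 0.43 (limma, adjusted p = 0.928). Without control IgG library 1 it was 0.08 (adjusted p = 0.935), and without control library 3 it was -0.48 (adjusted p = 0.862). Its sign therefore rests on control library 1.

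The balance of the drug's targets did not separate the groups. The ratio of Cd86 to Cd80 FPKM was 1.87, 1.304 and 2.06 with CTLA4-Ig, against 1.052, 1.56 and 2.45 with control IgG. Cd86 was above Cd80 in all 6 libraries, and control libraries again held the lowest and the highest ratio. Mean ratios were 1.75 ± 0.393 for CTLA4-Ig and 1.69 ± 0.710 for control IgG (SD, n = 3 each). The log2 ratios differed by 0.11 (exact permutation test, two-sided, p = 0.8; the smallest possible here is 0.1), by -0.19 without control library 1 and by -0.03 without CTLA4-Ig library 3.

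**Figure D1:**
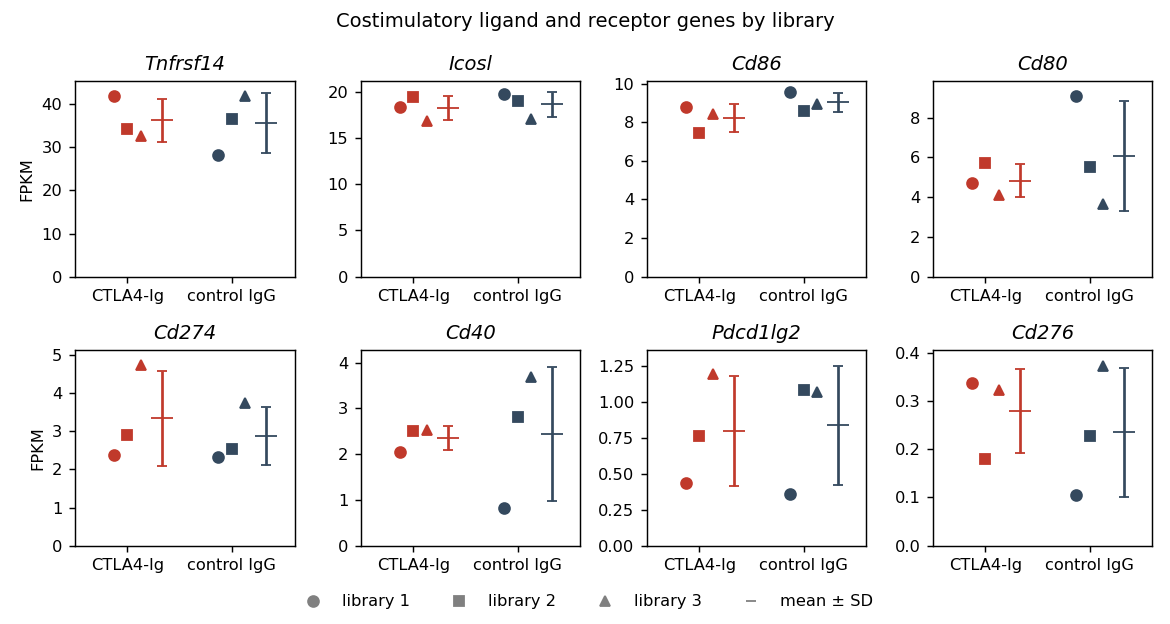
FPKM of the 8 genes (vertical axes, from 0) in each library of the CTLA4-Ig and control IgG groups, with the library number as the symbol and the mean ± SD (n = 3) beside the points. The groups overlap in every panel, and control library 1 holds the highest value of Cd80 (9.08 FPKM) and the lowest of Cd40 (0.831 FPKM).

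Among the PD-1 ligands, Cd274 stood at 2.36, 2.91 and 4.75 FPKM with CTLA4-Ig and at 2.33, 2.53 and 3.73 FPKM with control IgG. Library 3 was the highest of each group, and the remaining 4 values lay close together. The log2 difference was 0.15 ± 0.23 (SE), with a 95% interval from -0.40 to 0.69 (limma, adjusted p = 0.943), and it was -0.07 without CTLA4-Ig library 3. GENCODE lists a single transcript of Cd274, and its length put these values at 80, 93 and 186 fragments with CTLA4-Ig, against 75, 89 and 126 fragments with control IgG. Counting error at those numbers is 7.34 to 11.5%. Pdcd1lg2, its neighbour, stood at 0.437, 0.763 and 1.19 FPKM with CTLA4-Ig and at 0.360, 1.08 and 1.07 FPKM with control IgG. That is about 5 to 21 fragments per library, with a counting error of 21.9 to 44.97%, so differences between its libraries were not resolved well at this depth.

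Icosl, whose protein costimulates T cells through ICOS, was among the steadiest members. It stood at 18.4, 19.5 and 16.9 FPKM with CTLA4-Ig and at 19.8, 19.1 and 17.1 FPKM with control IgG, a log2 difference of -0.03 ± 0.08 (SE). The 95% interval of that difference ran from -0.22 to 0.16 (limma, adjusted p = 0.978). Cd276 was the lowest of the set, at 0.336, 0.179 and 0.322 FPKM with CTLA4-Ig and at 0.106, 0.227 and 0.372 FPKM with control IgG. This amounts to about 3 to 13 fragments per library, with a counting error of 28.3 to 57.8%.

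Of the TNF receptor members, Cd40 stood at 2.04, 2.49 and 2.52 FPKM with CTLA4-Ig and at 0.831, 2.82 and 3.70 FPKM with control IgG. The CTLA4-Ig values were close to each other and lay within the wide control range, whose lowest and highest values differed 4.44-fold. The log2 difference was 0.06 ± 0.33 (SE), with a 95% interval from -0.73 to 0.85 (limma, adjusted p = 0.987). Without control library 1, every CTLA4-Ig value was below the remaining control values and the difference was -0.34 (unadjusted p = 0.049, adjusted p = 0.623 in limma). In that fit 868 of the 10865 genes had an unadjusted p under 0.05, against 659 with all libraries. The share of genes without overlap was not computed for it. No other member fell under 0.05 in any fit with 1 library left out. Without control library 3 the difference of Cd40 was 0.34. The lowest value rests on about 7 to 22 fragments, depending on which transcript length applies.

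Tnfrsf14 was the most abundant member, at 42.0, 34.3 and 32.7 FPKM with CTLA4-Ig and at 28.2, 36.7 and 41.9 FPKM with control IgG. The groups spanned nearly the same range, and control library 1 was again the lowest. The log2 difference was 0.04 ± 0.16 (SE), with a 95% interval from -0.34 to 0.41 (limma, adjusted p = 0.985), and it was -0.12 without control library 1.

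**Figure D2:**
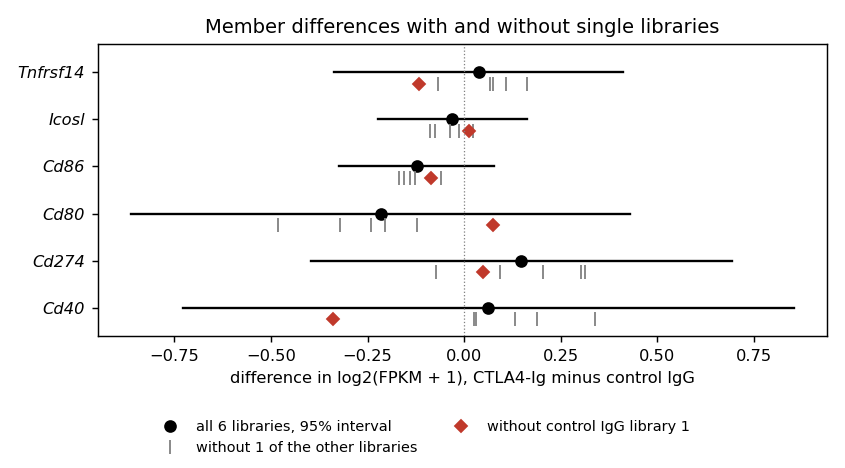
Difference in log2(FPKM + 1), CTLA4-Ig minus control IgG, of the 6 tested genes, with all libraries (point and limma's 95% interval) and with each library left out. Every interval spans 0, and leaving out control library 1 (diamond) moves Cd80 to 0.08 and Cd40 to -0.34.

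The levels of the members, which FPKM sets per transcript length, ran in the order Tnfrsf14, Icosl, Cd86, Cd80, Cd274, Cd40, Pdcd1lg2 and Cd276. Over the 6 libraries the mean was 36.0 ± 5.40 FPKM for Tnfrsf14, 18.5 ± 1.21 for Icosl, 8.62 ± 0.701 for Cd86 and 5.45 ± 1.94 for Cd80 (SD, n = 6). It was 3.10 ± 0.960 FPKM for Cd274, 2.40 ± 0.945 for Cd40, 0.818 ± 0.356 for Pdcd1lg2 and 0.257 ± 0.104 for Cd276 (SD, n = 6). Of the 7 pairs of neighbours in this order, 5 were ranked the same way in 6 of 6 libraries, with a two-sided exact paired permutation p = 0.03125, the smallest that 6 libraries allow, and 0.0438 after Benjamini-Hochberg adjustment over the 7 pairs. Cd80 exceeded Cd274 in 4 of 6 libraries (exact paired permutation p = 0.125, adjusted p = 0.125), and Cd274 exceeded Cd40 in 5 of 6 (p = 0.0938, adjusted p = 0.109), so the order of these 3 was not separated beyond their spread. The order of the means stayed the same when any library was left out. Both the order and the pairs were taken from the same 6 libraries, so these p-values do not test an order set beforehand.

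The members differed widely in how much they varied between libraries of the same group. The within-group SD on the log2 scale was 0.42 for Cd80 and 0.51 for Cd40, larger than in 95.7% of 1919 and 95.5% of 1197 genes within 1.5-fold of their levels. In both, the control libraries varied more: the SD was 2.76 FPKM against 0.816 with CTLA4-Ig for Cd80, and 1.47 against 0.271 for Cd40. In Cd274 it was the other way, with 0.758 FPKM in control libraries against 1.25 with CTLA4-Ig. The within-group SD on the log2 scale was 0.24 for Tnfrsf14, above 93.2% of genes of like level, and 0.34 for Cd274, above 87.8%. Cd86 and Icosl were ordinary, with SDs of 0.09 and 0.10, above 32.7% and 47.1% of genes of like level. For the 2 targets of the drug, the SE of the difference was accordingly 0.27 in Cd80 and 0.08 in Cd86.

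Control IgG library 1 held an extreme value in all 8 members. It was the highest library in 3 of them (Cd80, Cd86 and Icosl) and the lowest in 5 (Cd274, Pdcd1lg2, Cd276, Cd40 and Tnfrsf14). Some margins were small: Cd274 stood at 2.33 FPKM there against 2.36 FPKM in CTLA4-Ig library 1. Icosl stood at 19.8 FPKM there against 19.5 FPKM in CTLA4-Ig library 2. The values of Cd276 and Pdcd1lg2 there rest on about 3 and 5 fragments. Over all genes tested, which leave out Cd276 and Pdcd1lg2, control library 1 held an extreme in 49.4%, the highest share of the 6 libraries. These counts were made after the values of that library were seen. Genes induced by interferons were low in the same library: of 23 measured, 22 were lowest there, against 24.5% of all genes tested. Their mean log2 value was 2.54, 2.29 and 2.26 with CTLA4-Ig, against 1.61, 2.55 and 2.79 with control IgG. Plasmacytoid dendritic cell markers also had their lowest mean log2 value in that library, with 3.97, 3.48 and 3.94 in the CTLA4-Ig libraries and 3.11, 3.92 and 3.999 in the control IgG libraries. Of 7 tested conventional dendritic cell markers 6 were lowest in that library, against 24.5% of all genes tested. The growth factor receptor gene Flt3 was highest there, at 18.2, 15.8 and 24.2 FPKM with CTLA4-Ig, against 46.6, 19.2 and 18.7 FPKM with control IgG. The low values were not particular to these lists. T cell, B cell, monocyte, erythroid, and stromal and endothelial markers also had their lowest mean log2 value in control library 1. So did basophil, mast cell and eosinophil markers, but neutrophil, macrophage, NK cell and osteoclast markers did not. The part of these differences in the member values was not tested.

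For each tested member, the 3 genes with the most similar pattern were those whose deviations from their own mean log2 value over the 6 libraries lay nearest to the member's, among genes that averaged 5 FPKM or more. For Cd40 these were Cd74, H2-Ab1 and H2-Aa, the invariant chain and both chains of the MHC class II molecule I-A, with mean absolute differences of 0.0893, 0.0928 and 0.0929. H2-Ab1 stood at 159, 185 and 172 FPKM with CTLA4-Ig and at 93.0, 154 and 233 FPKM with control IgG, so that it shared with Cd40 the low control library 1 and the high control library 3. For Cd80 they were Sec24d, a coat component of vesicles leaving the endoplasmic reticulum, Manf, a secreted protein of that organelle, and the noncoding RNA Neat1, with 0.072, 0.0886 and 0.0932. Sec24d stood at 8.59, 10.9 and 7.59 FPKM with CTLA4-Ig and at 13.5, 9.88 and 7.40 FPKM with control IgG, with its highest and lowest values in the same libraries as Cd80.

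For Cd274 the nearest genes were Pnrc1, Gm7334 and the cell death gene Pmaip1, with 0.0983, 0.107 and 0.112. Pnrc1 had 31.35 FPKM in CTLA4-Ig library 3, against 17.7 and 18.8 FPKM in the other libraries of that group. For Tnfrsf14 they were Psap, the precursor of lysosomal saposins, the ubiquitin-activating enzyme gene Uba6 and the kinase gene Camkk2, with 0.0388, 0.039 and 0.0408. Cd86 was nearest to Glud1, Morc2a and Uqcrfs1 at 0.0167 to 0.0213, and Icosl to Msto1, Elmod2 and Osbp at 0.0191 to 0.021. For steady genes such as these, small distances are easily reached. The likeness rests on 6 libraries and is a description.

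**Figure D3:**
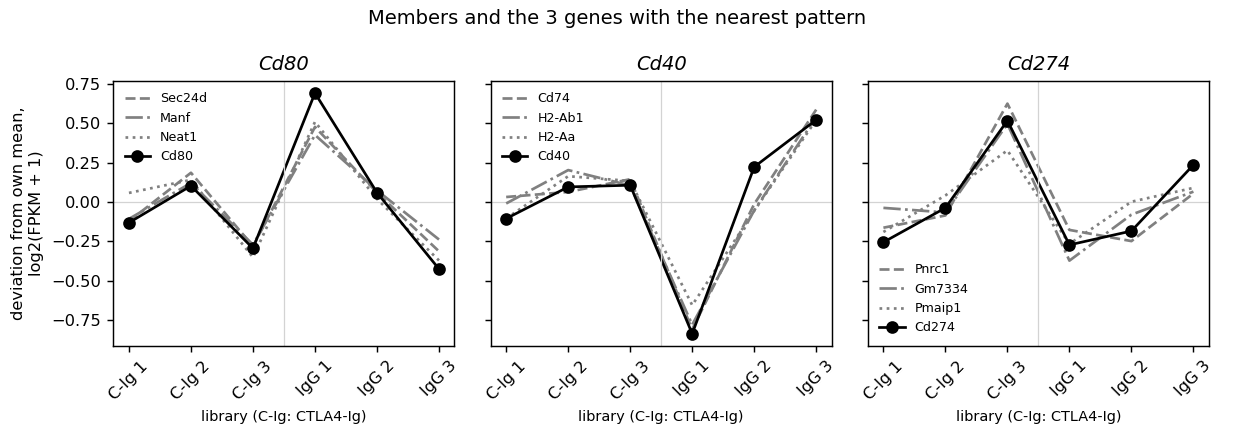
Deviation of log2(FPKM + 1) from each gene's own mean in the 3 CTLA4-Ig and 3 control IgG libraries for Cd80, Cd40 and Cd274 (black) and the 3 genes nearest to each in pattern (grey). Cd80 peaks and Cd40 dips in control library 1, and Cd274 is highest in CTLA4-Ig library 3.

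The partners of these proteins on other cells were scarce, with a pair of exceptions. Of 9 partner genes 2 were tested, and 6 were under 1 FPKM in all libraries. Btla, the inhibitory receptor that HVEM binds, stood at 17.3, 12.5 and 17.8 FPKM with CTLA4-Ig and at 19.9, 18.97 and 20.8 FPKM with control IgG. Every CTLA4-Ig library was below every control library, and the log2 difference was -0.32 ± 0.13 (SE; limma unadjusted p = 0.0459, adjusted p = 0.81), so it was not called. The unadjusted p of Btla was no longer under 0.05 without CTLA4-Ig library 2, control library 2 or control library 3, nor with no filter on low values or no trend in the fit. Tnfsf14, which encodes the other HVEM ligand LIGHT, stood at 12.03, 12.8 and 11.5 FPKM with CTLA4-Ig and at 14.3, 8.79 and 8.99 FPKM with control IgG, overlapping widely. Cd28, the T cell receptor for CD80 and CD86, stood at 0.634, 0.595 and 0.551 FPKM with CTLA4-Ig and at 0.307, 0.776 and 1.15 FPKM with control IgG. Ctla4 itself reached at most 0.247 FPKM with CTLA4-Ig, against 0.234 FPKM with control IgG, Icos 0.174 FPKM with CTLA4-Ig, against 0.127 FPKM with control IgG, and Pdcd1 0.370 FPKM with CTLA4-Ig, against 0.527 FPKM with control IgG. Cd40lg was listed at 0 in all CTLA4-Ig libraries and in control library 1, and at 0.0927 and 0.193 FPKM in the other controls. Cd160 stayed between 0.410 and 0.796 FPKM and Lta between 0.0894 and 0.329 FPKM over the 6 libraries.

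Other checkpoint and costimulatory ligands were measured beside the members. Vsir, which encodes the B7 relative VISTA and is listed under the name 4632428N05Rik, far exceeded the 8 members in level, at 180, 189 and 166 FPKM with CTLA4-Ig, against 165, 162 and 163 FPKM with control IgG. The groups did not overlap by a narrow margin, and the log2 difference was 0.12 (limma adjusted p = 0.854). Of 11 genes in its list 5 were tested, 4 were positive, and 0 had an unadjusted p under 0.05, with a median of 0.11. Ceacam1, an inhibitory adhesion receptor, stood at 81.2, 106 and 78.8 FPKM with CTLA4-Ig, against 67.9, 78.4 and 69.0 FPKM with control IgG (log2 difference 0.29, limma adjusted p = 0.817). Of 8 TNF superfamily ligands 3 were tested, with 1 positive 0 at an unadjusted p under 0.05 and a median of -0.04. Tnfsf13b (BAFF), a survival factor of B cells, stood at 32.7, 42.7 and 30.2 FPKM with CTLA4-Ig and at 10.1, 27.9 and 24.3 FPKM with control IgG, with no overlap (log2 difference 0.83, limma adjusted p = 0.817). Cd70 and Tnfsf18 were listed at 0 in every library.

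In lists of upstream signalling genes limma called 0 genes at the adjusted threshold. Of 20 genes of CD40 and NF-kB signalling all were tested, 7 were positive and 13 negative, with 0 at an unadjusted p under 0.05 and a median of -0.03. The NF-kB inhibitor gene Nfkbia was highest in control library 1, at 154 FPKM, against 80.4 to 92.5 FPKM in the other 5 libraries. Of 21 genes for interferon receptors, JAKs, STATs and IRFs 11 were positive, with a median of 0.01, and of the 23 tested interferon-stimulated genes 13, with a median of 0.02, and neither list had a member at an unadjusted p under 0.05. Irf1, a factor known to drive the PD-L1 gene in human cells, stood at 40.4, 39.05 and 40.9 FPKM with CTLA4-Ig, against 32.96, 36.3 and 40.9 FPKM with control IgG. Of 15 LPS sensing genes 4 were positive, with a median of -0.03, and 1 had an unadjusted p under 0.05: Tab1, an adaptor of the kinase TAK1, at 9.26, 8.82 and 9.21 FPKM with CTLA4-Ig, against 10.8, 9.68 and 11.3 FPKM with control IgG (limma adjusted p = 0.784). That 1 of 15 stands beside 6.07% of all genes at an unadjusted p under 0.05, and 47.7% of all genes were positive. The count fell to 0 with array weights, with the replicate block and without any single library other than control library 2.

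Among 10 genes that act on the stability or turnover of CD86 and PD-L1 protein, 6 were positive, with a median of 0.02, and 1 had an unadjusted p under 0.05, where the share of all genes was 6.07%. The groups did not overlap in 2 of the 10, where the share of all genes was 12.2%. The gene at an unadjusted p under 0.05 was Hip1r, whose product has been described to carry PD-L1 to lysosomes in human cancer cells. It stood at 20.8, 25.5 and 24.1 FPKM with CTLA4-Ig and at 19.1, 18.0 and 18.1 FPKM with control IgG, with no overlap. The log2 difference was 0.33 ± 0.08 (SE; limma unadjusted p = 0.00612, adjusted p = 0.72), so it was not called over all genes. Cmtm6, which protects PD-L1 from degradation, also had no overlap, at 68.3, 71.2 and 67.2 FPKM with CTLA4-Ig, against 64.2, 63.7 and 62.2 FPKM with control IgG (log2 difference 0.12, limma adjusted p = 0.82). March1, a ubiquitin ligase that removes CD86 from the surface, had 18.6, 19.5 and 20.5 FPKM with CTLA4-Ig, against 26.5, 20.5 and 20.4 FPKM with control IgG, overlapping by a small margin. Neutrophil markers had positive log2 differences beside these genes, with 0 called, and their part was not tested.

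**Figure D4:**
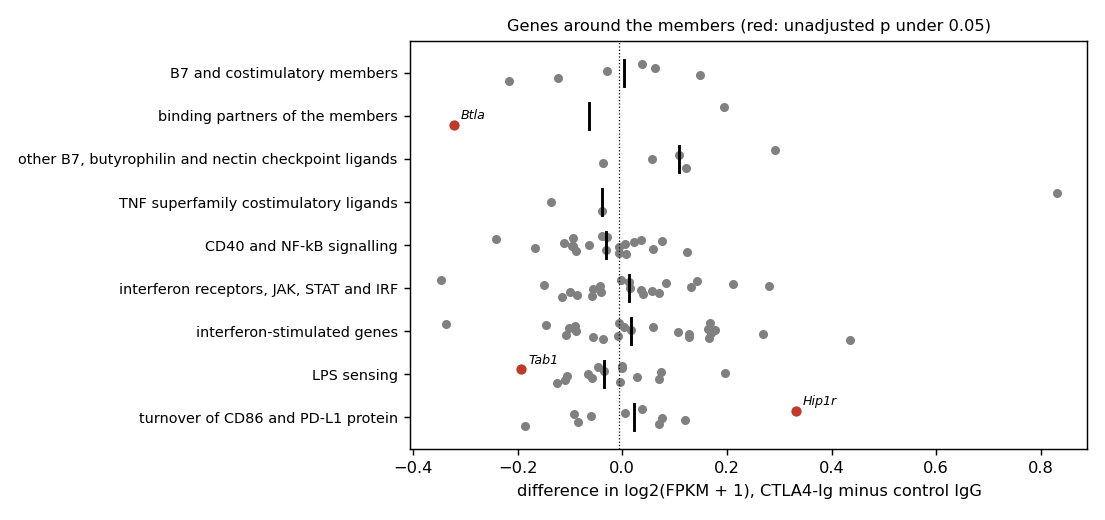
Difference in log2(FPKM + 1), CTLA4-Ig minus control IgG, of each tested gene in the member list and 8 related lists, with each list's median (bar) and the median of all genes tested (dotted line, -0.006). The 3 genes at an unadjusted p under 0.05 are Btla, Tab1 and Hip1r, or 3.03% of the 99 tested outside the members against 6.07% of all genes, and none of the 6 members is among them.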

How the data were processed

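Gene values are FPKM as deposited by the authors, 1 per gene name and library, scaled between libraries. The tools named are Cuffnorm 2.2.1, SAMtools 0.1.19, Bowtie2 2.2.3 and TopHat2 2.0.13, and the build is mm10, per the submitters' processing notes; no settings or annotation are named. Groups came from the treatment label.

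Genes averaging 1 FPKM or more were tested as log2(FPKM + 1), which understates changes of low genes, in limma 3.58.1 (R 4.3.3; lmFit, eBayes with a trend), with Benjamini-Hochberg adjustment over all genes and a threshold of 0.05. The fit was checked on simulated data. Single ratios and levels were compared with exact permutation tests (scipy 1.17.1).

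Depth was estimated from 2633 genes with 1 GENCODE transcript of 1000 to 6000 bases, assuming 200-base fragments: between 118 and 137 of them per library lay within 10% of 1 step. FPKM files hold no counts, so no count test was run. Fragment numbers of genes with several transcripts use the shortest over 1000 bases and the longest. Counting errors cover counting only.

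The members and gene lists were chosen with earlier results of these data known. Of 240 listed genes 228 were matched by name, 9 through another symbol in RefSeq (GRCm38.p6), and 3 were not matched. From each list the 4 genes with the smallest unadjusted p could be named, with every measured partner of a member, the 3 genes nearest in pattern to each member and the markers. Nfkbia and the genes given under other observations were named after its values were seen. Alternatives were a replicate block, array weights, leaving each library out, and other pseudocounts, filters, scalings and priors.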

Additional observations from a re-analysis of the deposited data

How the results depend on the processing

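No member was called under any of the alternatives run: array weights, a robust prior, a fit with no trend, quantile or median-of-ratios scaling, pseudocounts of 0.1 and 0.5, testing every gene, a 5 FPKM filter (which leaves Cd274 and Cd40 without a test), the replicate block and leaving out each library. With array weights the difference of Cd40 was -0.198 and that of Tnfrsf14 -0.028, against 0.063 and 0.038 without weights. The weights also moved Cd80 to -0.058 from -0.216 and Cd274 to 0.079 from 0.148. Leaving out single libraries gave ranges of -0.483 to 0.075 for Cd80, -0.169 to -0.061 for Cd86, -0.073 to 0.313 for Cd274, -0.34 to 0.339 for Cd40, -0.087 to 0.022 for Icosl and -0.116 to 0.162 for Tnfrsf14. The difference between the groups in the log2 Cd86 to Cd80 ratio ranged from -0.191 to 0.42. Tnfrsf14 turned negative without CTLA4-Ig library 1 (-0.068) or control library 1 (-0.116), Cd40 without control library 1 and Cd274 without CTLA4-Ig library 3. Cd80 turned positive (0.075) without control library 1 only, and Icosl turned positive without control library 1 (0.012) or CTLA4-Ig library 3 (0.022). Over all genes, limma called 0 with all libraries and 0 to 6 with 1 left out, with 6 called without CTLA4-Ig library 3, 2 without CTLA4-Ig library 1 or control library 3, 1 without CTLA4-Ig library 2 or control library 2 and 0 without control library 1. Of the 10865 genes tested 659 had an unadjusted p under 0.05, with 663 after median-of-ratios scaling and 904 with array weights. With 1 library left out it was 347 without CTLA4-Ig library 2, 557 without control library 2 and 868 without control library 1. Testing every gene gave 892. Of the 99 genes tested in the related lists 3 had an unadjusted p under 0.05, and 5 after median-of-ratios scaling. With 1 library left out the number was 1 to 10. It was 1 without CTLA4-Ig library 2, 5 without control library 2 and 10 without control library 1, where 7 were interferon-stimulated genes. Of the 23 tested in that list 22 had their lowest value in control library 1, so leaving it out raises their control mean. The number of neighbouring levels told apart was 5 with 6 libraries and 0 with 5, by construction, since 5 libraries cannot give an exact paired p under 0.0625. The causes of the other changes were not tested.

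No pairing of the libraries by the numbers in the titles was seen. The correlations of their deviations from the group means were -0.154, -0.094 and -0.023 for numbers 1, 2 and 3, and 0 of 3 CTLA4-Ig libraries correlated best with their own number. Deviations sum to 0 within each group of 3 libraries, so these values cannot tell whether libraries of the same number were handled together. With the replicate block the differences were -0.216 for Cd80 (adjusted p = 0.94) and -0.123 for Cd86 (adjusted p = 0.922), and 619 genes had an unadjusted p under 0.05. The paired ratio of Cd86 to Cd80 differed by 0.107 (exact permutation p = 1.0). With 3 pairs that test cannot give a p under 0.05, so it cannot tell whether the ratio differed. Median-of-ratios scaling was not run for that ratio, which it leaves as it is, and quantile scaling, which can move it, was not run either.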

Other observations

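Control IgG library 1 also differed in genes outside the costimulatory set, given here as values chosen after they were seen. Erythroid markers summed to 74.1 to 108 FPKM with CTLA4-Ig and to 8.03 to 124 FPKM with control IgG. The adult beta globin gene listed as Beta-s stood at 43.9, 73.0 and 61.4 FPKM with CTLA4-Ig and at 3.17, 72.2 and 69.9 FPKM with control IgG. Socs3, a feedback inhibitor of cytokine receptors, stood at 4.62, 5.87 and 5.57 FPKM with CTLA4-Ig and at 23.5, 2.23 and 5.61 FPKM with control IgG. Complement C1q genes followed another pattern: C1qa was highest in CTLA4-Ig library 3, at 50.2 FPKM against 11.5 and 19.3 FPKM in the others of that group, and stood at 25.6, 7.96 and 11.9 FPKM with control IgG.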
